A study of Homo sapiens with 8 samples.

Results

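Receptor tyrosine kinases that have been studied in osteosarcoma were examined across 8 arrays of Saos-2 RNA: MET, AXL, EGFR, ERBB2, PDGFRA, PDGFRB, FGFR1, FGFR2, KIT and DDR2. Their probe sets were those that the platform annotation assigns to exactly 1 gene. This gave 46 probe sets for the 10 genes, of 41091 such probe sets and 19775 genes on the array. Saos-2, a human cell line established from an osteosarcoma, is labelled p53 null in every group. The study asked how its transcriptome responds to a compound labelled Prima. Untreated cells (3 arrays, replicates 1, 2 and 3) were set against cells given the compound for 6 h (3 arrays, replicates 1, 2 and 3) and for 12 h (2 arrays, replicates 1 and 3). Neither a dose nor a solvent control is named in the labels. No 12 h array numbered 2 entered the analysis. All groups are of 1 cell line, and the labels do not say whether replicates came from separate cultures. P-values here therefore reflect differences among these arrays alone, which may be technical.

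Receptor tyrosine kinases are single-pass membrane proteins that bind a ligand outside the cell, pair up and phosphorylate tyrosines on each other, which recruits adaptors that feed the RAS-MAPK and PI3K-AKT pathways. MET binds hepatocyte growth factor, AXL binds GAS6, EGFR and ERBB2 belong to the epidermal growth factor receptor family (ERBB2 has no known ligand of its own), PDGFRA, PDGFRB and KIT form a class with a split kinase domain, FGFR1 and FGFR2 bind fibroblast growth factors, and DDR2 binds fibrillar collagen. In bone-forming cells, FGF receptors and DDR2 are known for their part in osteoblast differentiation, and platelet-derived growth factor receptors for theirs in mesenchymal growth. In osteosarcoma, MET, AXL and the PDGF receptors are targets of multikinase inhibitors.

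Values are MAS5 signals, in which each array was scaled to 1 common mean, and "level" below means such a signal of 1 probe set. A probe set's brightness depends on its probes, so a brighter probe set does not show a more abundant transcript. Several arrays stood apart. Those numbered 2 had median signals of 50.8 (untreated) and 47.5 (6 h). Medians were 21.8 to 24.9 on arrays numbered 1 and 14.2 to 15.6 on those numbered 3. Low signals were raised to a floor before the fits. Signals at that floor made up 19.0% to 20.8% of probe sets on arrays numbered 3. They made up 6.27% to 7.88% on those numbered 1, and 0.0623% (untreated) and 0.0714% (6 h) on those numbered 2. ACTB probes at the 3′ end outshone those at the 5′ end by a ratio of 2.29 on the first 12 h array and 1.73 on the first 6 h array, and of 1.12 to 1.38 elsewhere, a measure of how intact the RNA is. The same ratio for GAPDH was 0.93 to 1.04 on all 8 arrays, with 1.04 on that 12 h array and 0.98 on that 6 h array, so it did not set them apart in the same way. The labelled cell type was checked against its markers. All 8 measured osteoblast lineage markers passed the filter on dim genes (mean log2 signal above 4.22, the median of all probe sets). Bright ones were RUNX2 at 1411 to 2350 and COL1A1 at 2764 to 4801. The dimmest were SPP1 at 14.5 to 94.2, IBSP at 32.1 to 77.4 and COL1A2 at 26.9 to 99.6. Of the markers of other cell types 1 of 3 for blood, 1 of 4 for endothelium and 3 of 5 for epithelium passed. The endothelial PECAM1 had a mean log2 signal of 5.16, above the 4.92 of SPP1, so passing the filter does not by itself mark a lineage. The 5 epithelial markers summed to 538 to 977 on untreated, 681 to 2295 on 6 h and 941 to 963 on 12 h arrays. The highest sum came from KRT18, a keratin, whose signal reached 2064 on 6 h replicate 1, with 342 to 733 elsewhere. The part of RNA integrity and of these markers in the results was not tested.

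The promoters of these genes are of different kinds. RefSeq windows (build GRCh38.p14) from 250 bases before to 50 after a start site were used for 9 of the genes, 18 windows in all. FGFR1 was left out, so the counts below do not cover it. Those of MET, AXL, KIT and DDR2 are shown because the results turn on these genes: MET and DDR2 for their 12 h values, AXL and KIT for the spread of their 6 h arrays. All lie on the plus strand and read 5′ to 3′. Capitals mark the motifs searched on both strands: the GC box GGGCGG, the TATA motif TATAAA and the AP-1 motif TGANTCA. A cyclic AMP response element, TGACGTCA, was searched too.
MET, chr7:116671946-116672245: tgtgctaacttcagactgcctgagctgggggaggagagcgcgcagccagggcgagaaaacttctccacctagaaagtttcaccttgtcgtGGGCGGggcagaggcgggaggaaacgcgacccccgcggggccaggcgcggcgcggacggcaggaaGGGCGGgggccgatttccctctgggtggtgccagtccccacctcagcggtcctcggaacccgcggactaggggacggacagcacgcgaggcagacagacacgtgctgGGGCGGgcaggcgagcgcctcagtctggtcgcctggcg
AXL, first of 2 start sites, chr19:41218973-41219272: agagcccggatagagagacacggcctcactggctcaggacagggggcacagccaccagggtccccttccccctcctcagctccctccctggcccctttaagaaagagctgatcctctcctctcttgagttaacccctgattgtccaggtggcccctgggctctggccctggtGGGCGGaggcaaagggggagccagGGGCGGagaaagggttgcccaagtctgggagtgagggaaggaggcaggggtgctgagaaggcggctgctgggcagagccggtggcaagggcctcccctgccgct
KIT, chr4:54657707-54658006: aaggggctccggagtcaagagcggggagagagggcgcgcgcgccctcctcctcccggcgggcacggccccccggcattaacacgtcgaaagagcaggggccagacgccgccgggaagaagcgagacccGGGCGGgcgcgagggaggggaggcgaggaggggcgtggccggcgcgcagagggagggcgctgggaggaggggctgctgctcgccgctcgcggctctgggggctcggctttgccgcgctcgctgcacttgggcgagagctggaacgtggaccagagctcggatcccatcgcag
DDR2, first of 3 start sites, chr1:162630613-162630912: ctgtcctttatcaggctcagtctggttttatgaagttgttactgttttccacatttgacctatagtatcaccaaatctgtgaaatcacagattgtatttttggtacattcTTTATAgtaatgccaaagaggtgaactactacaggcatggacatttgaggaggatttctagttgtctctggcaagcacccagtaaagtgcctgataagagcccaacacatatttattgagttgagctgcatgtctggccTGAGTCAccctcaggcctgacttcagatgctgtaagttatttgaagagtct
DDR2, the second start site, chr1:162631725-162632024: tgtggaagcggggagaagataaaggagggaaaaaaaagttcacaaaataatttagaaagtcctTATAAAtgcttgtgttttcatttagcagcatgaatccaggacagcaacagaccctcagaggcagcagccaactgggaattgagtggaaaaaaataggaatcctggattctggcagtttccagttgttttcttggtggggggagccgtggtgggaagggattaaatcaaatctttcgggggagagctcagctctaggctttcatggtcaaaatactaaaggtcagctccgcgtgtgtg
The MET window holds 3 GC boxes, whose first bases lie at -160, -95 and 13 from the start site, and 30 CpG dinucleotides. The KIT window holds 1 GC box at -122 and 38 CpG. The AXL window shown holds 2 GC boxes at -78 and -54 but only 7 CpG, with a GC content of 66.0%. The second AXL window, not shown, has none of the motifs and 17 CpG. The DDR2 windows shown have no GC box, a GC content of 41.0% and 45.0%, and 0 and 5 CpG. Each of these has a TATA motif (at -140 in the first and at -187 in the second). The first also has an AP-1 motif at -1. The third DDR2 window, not shown, has none of the motifs, a GC content of 44.7% and 3 CpG. Over all 35116 RefSeq windows the median GC content was 58.7% and the median CpG count 14. GC boxes occurred in 45.0% of those windows and in 8 of the 18 windows of the 9 genes, TATA motifs in 11.5% and 3 of 18, AP-1 motifs in 7.71% and 4 of 18. The cyclic AMP motif occurred in 1.85% and in 0 of 18. These are matches of letters and not shown to be sites, and no binding was measured.

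No receptor gene passed the test in any comparison. For 9 of the 10 genes the brightest probe set passed the filter and was tested, and PDGFRB was not. With limma and Benjamini-Hochberg adjustment over 12063 genes, 0 of 9 passed at 6 h and 0 of 9 at 12 h against untreated, and 0 of 9 at 12 h against 6 h, where 0.0%, 0.0% and 0.0% of all genes passed. At an unadjusted p under 0.05 the members' count was also 0 in each comparison, against 0.655%, 0.613% and 0.73% of all genes. With the replicate number as a block it was 0 of 9 at 6 h, 1 of 9 at 12 h and 1 of 9 from 6 h to 12 h (DDR2 in both), against 4.09%, 2.17% and 2.46% of all genes, and again no gene passed after adjustment. At 6 h 4 of the 9 differences were above 0 with a median log2 difference of -0.01, against 53.0% and 0.02 over all tested genes. At 12 h 4 of 9 were above 0 (median -0.02, all genes 59.9% and 0.08), and from 6 h to 12 h 6 of 9 (median 0.17, all genes 57.2% and 0.06). The groups compared share arrays, so these counts are not independent of each other. In RNA from whole cultures, fewer expressing cells and less RNA per cell cannot be told apart.

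**Figure D1:**
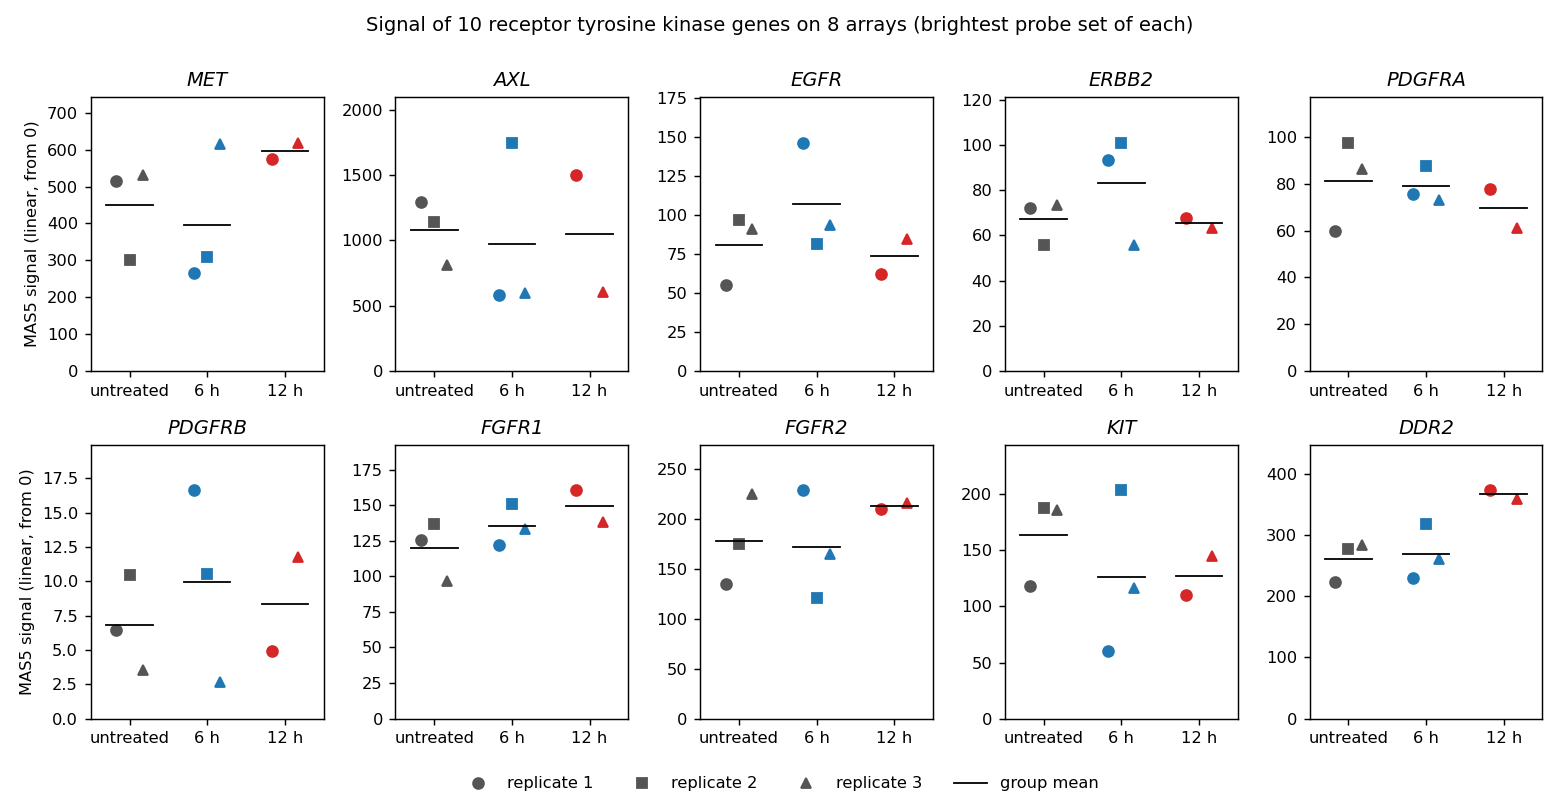
MAS5 signal (linear axis from 0, a different range in each panel) of the brightest probe set of each receptor gene, with 1 point per array, the marker shape giving the replicate number and the bar the group mean. DDR2, MET and FGFR1 at 12 h lie above the untreated arrays, while AXL ranges from 585 to 1745.5 within the 6 h group.

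The HGF receptor gene MET was read by a bright probe set at 514, 300.4 and 532 in untreated replicates 1, 2 and 3. It read 267, 308 and 616 after 6 h, and 575 and 619 in 12 h replicates 1 and 3. The 6 h values spanned the untreated range on both sides, whereas both 12 h values lay above every untreated one. Means were 449 ± 129 (SD, n = 3), 397 ± 191 (n = 3) and 597 ± 30.9 (n = 2). The log2 difference at 12 h was 0.46 ± 0.38 (SE; 95% interval -0.36 to 1.27; adjusted p = 0.9999, limma), and 0.19 without both arrays numbered 2. Against 6 h it was 0.69 ± 0.38 (interval -0.12 to 1.50; adjusted p = 1.0, limma), the largest of the 9 in that comparison and with an interval that includes 0. Without 6 h replicate 3 it was 1.06 (interval 0.31 to 1.80; adjusted p = 0.841, limma). In that limma fit 377 genes higher and 222 lower of all 12063 had an unadjusted p under 0.05, against 44 and 44 with all arrays. The other MET probe sets did not go the same way at 12 h. The bright 203510_at was at 0.46, and 213807_x_at, 211599_x_at and 213816_s_at were at -0.18, -0.57 and -0.88 on the log2 scale. Their SEs were 0.56, 0.71 and 1.34. The suffix of 213807_x_at and 211599_x_at marks probes that can also bind other transcripts. The mean log2 signal of 213816_s_at was 4.218, at the filter of 4.216, and it read 1.85, under the floor, on 12 h replicate 1. With the mean over probe sets, which includes 213816_s_at, in place of the brightest, the 12 h difference was -0.29 (interval -1.63 to 1.05). On replicate 1 arrays 211599_x_at read 71.3 untreated, 33.6 after 6 h and 40.5 after 12 h. It read 181 untreated and 109 after 6 h on the replicate 2 arrays, and 128, 177 and 157 on the replicate 3 arrays. Every replicate 1 value of that probe set lay below all values of the other numbers, which overlapped each other.

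AXL, the GAS6 receptor, read 1293, 1137 and 810.0 in untreated cells, 585, 1745.5 and 597 after 6 h, and 1498 and 606 after 12 h. The 6 h arrays held both the lowest and the highest reading of all 8, and both treated groups overlapped the untreated one. Means were 1080.1 ± 247 (SD, n = 3), 976 ± 667 (n = 3) and 1052 ± 631 (n = 2). The log2 differences were -0.32 ± 0.43 at 6 h (SE; 95% interval -1.24 to 0.60) and -0.15 ± 0.48 at 12 h (interval -1.18 to 0.87). The 6 h difference was -0.05 without 6 h replicate 1, -0.07 without 6 h replicate 3 and -0.84 without 6 h replicate 2 (interval -1.62 to -0.06), and -0.79 without both arrays numbered 2. In the same way the 12 h one was -0.81 when 12 h replicate 1 was left out and 0.50 when 12 h replicate 3 was. In the limma fit without 6 h replicate 2, AXL and KIT (2 of 9) had an unadjusted p under 0.05 at 6 h. So did 100 genes higher and 174 lower among all 12063. No gene passed after adjustment in that fit, where the smallest adjusted p at 6 h was 0.998 (limma). The dimmer AXL probe set read 126, 182 and 135 untreated, 27.7, 177 and 146 after 6 h, and 168 and 160.2 after 12 h. The single low reading was on 6 h replicate 1, where the bright AXL probe set, MET and KIT also had their lowest values of the 8 arrays. That array carried the KRT18 reading of 2064 and an ACTB ratio of 1.73, beside a GAPDH ratio of 0.98. The part of these in the low values was not tested. AXL had the highest mean log2 signal of the set, which by rule chose it for a search of similar patterns. Over the 8 arrays the genes whose log2 signal followed AXL most closely were LOC105376805, ARR3 and TCF24, with Pearson's r of 0.975, 0.971 and 0.966 among 12062 genes, as a description of arrays that share replicate numbers.

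EGFR, whose ligands include epidermal growth factor, read 55.0, 96.6 and 91.0 in untreated cells. It read 146, 81.2 and 93.3 after 6 h, and 62.4 and 84.6 after 12 h. The value of 146 on 6 h replicate 1 stood above all others, and the groups overlapped. Means were 80.9 ± 22.6 (SD, n = 3), 107 ± 34.5 (n = 3) and 73.5 ± 15.7 (n = 2), with log2 differences of 0.40 ± 0.37 (SE) at 6 h and -0.11 ± 0.42 at 12 h. The 6 h difference was 0.15 without 6 h replicate 1, 0.14 without untreated replicate 1 and 0.72 without both arrays numbered 2. A second EGFR probe set of similar brightness, 201983_s_at, read 90.7, 21.1 and 97.9 untreated, 219.6, 66.2 and 110.0 after 6 h, and 79.9 and 102 after 12 h. Both probe sets had their highest value on 6 h replicate 1. ERBB2, of the same family, read 72.1, 55.8 and 73.3 untreated, 93.6, 101 and 55.7 after 6 h, and 67.8 and 63.4 after 12 h. Both 6 h arrays above 90 stood beside 1 below every untreated value, and the 12 h pair lay inside the untreated range. The ERBB2 log2 differences were 0.28 ± 0.37 (SE) at 6 h, which was -0.01 without both arrays numbered 2, and -0.02 ± 0.42 at 12 h.

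In the class with a split kinase domain, KIT, the stem cell factor receptor, read 118, 188 and 186 in untreated cells, 59.9, 204 and 116 after 6 h, and 110.2 and 145 after 12 h. Its 6 h arrays spread from below to above all untreated ones. Means were 164 ± 39.8 (SD, n = 3), 127 ± 72.4 (n = 3) and 127 ± 24.4 (n = 2), with log2 differences of -0.51 ± 0.41 (SE; 95% interval -1.40 to 0.38) and -0.34 ± 0.46 (interval -1.34 to 0.65). Leaving out 1 array moved the 6 h difference between -0.06 (without 6 h replicate 1) and -0.94 (without 6 h replicate 2, interval -1.77 to -0.12). As given for AXL above, no gene passed after adjustment without 6 h replicate 2. The 12 h difference of KIT moved between -0.15 (without 12 h replicate 1) and -0.57 (without untreated replicate 1). PDGFRA, a receptor for platelet-derived growth factors, read 59.6, 97.4 and 86.1 untreated, 75.7, 87.65 and 73.2 after 6 h, and 77.7 and 61.2 after 12 h. All treated values lay inside the untreated range, and the log2 differences were -0.01 ± 0.35 (SE) and -0.20 ± 0.39. PDGFRB, its paralogue, read near the floor of 2.386, at 6.43, 10.5 and 3.56 untreated, 16.6, 10.5 and 2.66 after 6 h, and 4.96 and 11.8 after 12 h. It has 1 probe set, whose mean log2 signal of 2.83 lay under the filter of 4.22, so it was not tested. At such signals a change cannot be read.

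FGFR1, a fibroblast growth factor receptor, read 125, 137 and 96.6 in untreated cells, 122, 151 and 133 after 6 h, and 160.4 and 138 after 12 h. The lower 12 h value exceeded the highest untreated one by about 1 signal unit. Means were 119.5 ± 20.7 (SD, n = 3), 135 ± 14.5 (n = 3) and 149 ± 15.9 (n = 2), and the log2 differences were 0.19 ± 0.28 (SE; 95% interval -0.43 to 0.80) and 0.33 ± 0.32 (interval -0.36 to 1.02). FGFR2 read 135, 175.1 and 225 untreated, 229, 121 and 165 after 6 h, and 210.3 and 217 after 12 h. The 12 h arrays lay close together but inside the untreated range, with a mean of 213 ± 4.46 (SD, n = 2) against 178 ± 45.4 (n = 3). Its log2 differences were -0.07 ± 0.31 (SE) and 0.29 ± 0.35.

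DDR2, the collagen receptor, was the 1 tested gene of the set whose 12 h arrays lay above all others. Its bright probe set read 222, 278 and 284 in untreated cells, 230.0, 318 and 260.3 after 6 h, and 373 and 359 after 12 h. Both 12 h arrays lay above the untreated and the 6 h arrays, which overlapped each other. Means were 261 ± 33.8 (SD, n = 3), 269.6 ± 44.9 (n = 3) and 366 ± 9.49 (n = 2). The log2 difference was 0.04 ± 0.25 (SE) at 6 h, 0.49 ± 0.28 at 12 h (95% interval -0.11 to 1.10; adjusted p = 0.9999, limma) and 0.45 ± 0.28 from 6 h to 12 h (interval -0.15 to 1.06; adjusted p = 1.0, limma). By p the 12 h difference ranked at 277 of 12063 genes, and it did not pass. Over 18 alternatives it ran from 0.26 (mean over probe sets, interval -0.37 to 0.89) to 1.08 (array centring, which moved all genes). It was 0.34 with quantile normalization, 0.38 without untreated replicate 1 and 0.54 without both arrays numbered 2. With the replicate number as a block it was 0.58 ± 0.20 (SE; interval 0.13 to 1.04; adjusted p = 0.99979, limma), and that from 6 h to 12 h was 0.54 ± 0.20 (interval 0.08 to 1.00; adjusted p = 0.972, limma). Both of these intervals exclude 0, unlike those without the block, and neither difference passed.

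Among the tested genes, 3 of 9 receptors (MET, FGFR1, DDR2) had both 12 h arrays above all untreated ones, where 9.6% of all genes did. DDR2 was also the 1 of 9 with both 12 h arrays above all 6 h ones, where 7.1% did. At 6 h 0 of 9 had groups that did not overlap, against 3.54% of all genes. With 9 genes and 2 arrays at 12 h, these counts were not tested. Centring each array on its median moved the median of all genes at 12 h to 0.66, from 0.08 as deposited. Against the median of all genes, a distance that such centring cannot alter, the 12 h differences ran from -0.43 (KIT) and -0.29 (PDGFRA) to 0.37 (MET) and 0.41 (DDR2).

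**Figure D2:**
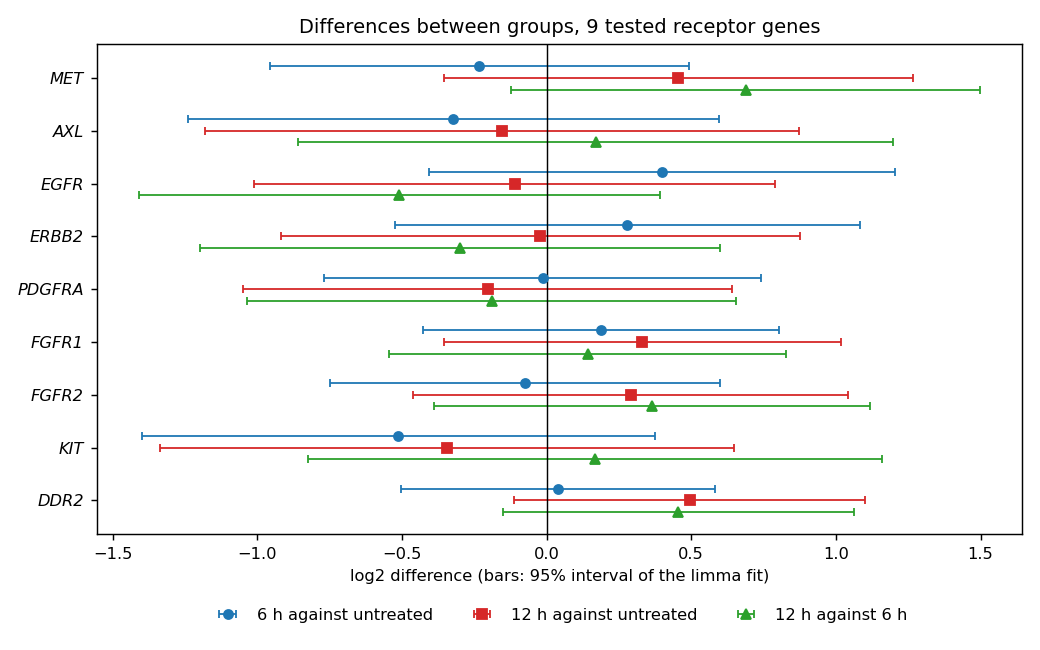
Log2 differences (horizontal axis) of the 9 tested receptor genes in 3 comparisons, with the 95% interval of the limma fit as bars. All 27 intervals of this fit, which has no replicate block, include 0. The largest difference is that of MET from 6 h to 12 h, at 0.69.

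Single probe sets showed how far 1 gene's readings could part. Of the 46 probe sets 29 passed the filter: all 7 of FGFR1, 5 of 11 of FGFR2, 4 each of EGFR (of 9), MET and DDR2, both of AXL, and 1 each of KIT, PDGFRA (of 4) and ERBB2 (of 3). In a fit over 22653 probe sets 0 of the 29 passed in any comparison with limma, where 0.0%, 0.0% and 0.0% of all did, and 1 of 29 had an unadjusted p under 0.05 in each, where 0.653%, 0.742% and 0.812% of all did. At 12 h the 4 tested EGFR probe sets ran from -1.38 to 0.66 on the log2 scale, the 5 of FGFR2 from -0.64 to 0.48 and the 7 of FGFR1 from -1.05 to 1.51. From 6 h to 12 h all 4 EGFR probe sets were below 0 (-1.01 to -0.37) and 3 of 4 DDR2 probe sets above 0 (-0.05 to 0.86).

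**Figure D3:**
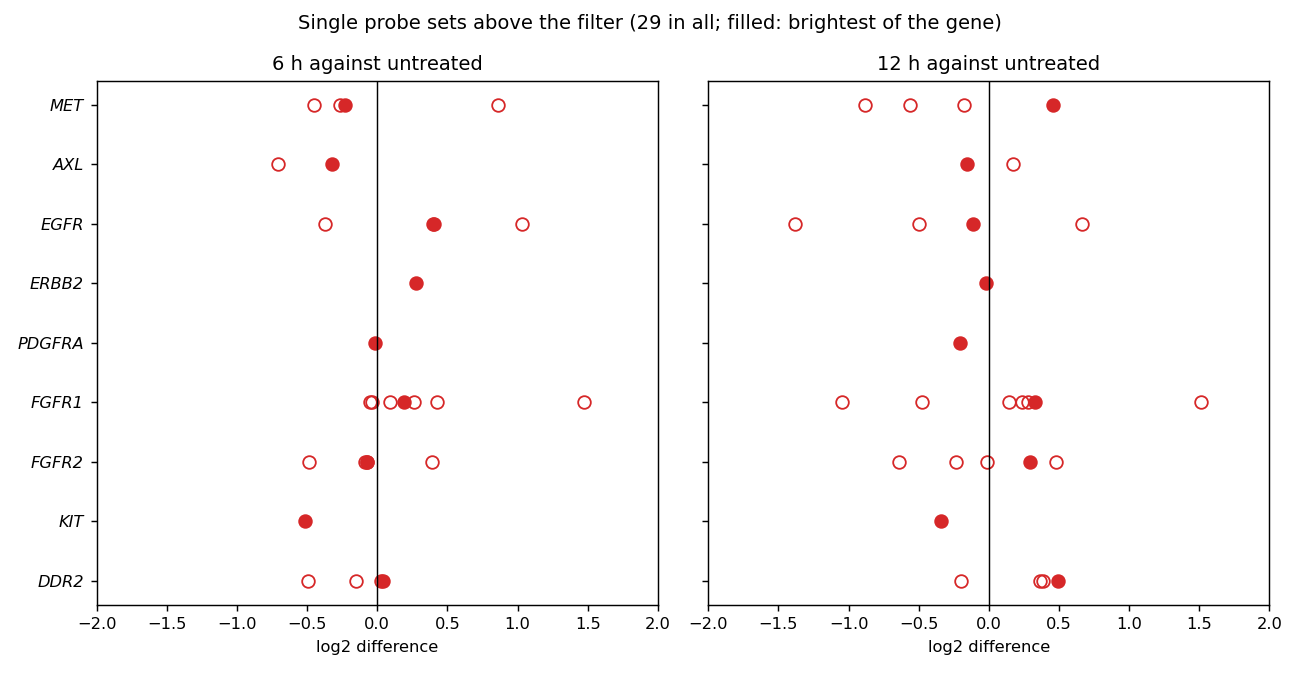
Log2 difference from untreated (horizontal axis) of the 29 receptor probe sets above the filter, at 6 h and at 12 h, with the brightest probe set of each gene filled. Probe sets of EGFR and FGFR1 lie on both sides of 0, and 1 FGFR1 probe set stands at 1.48 and 1.51.

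The FGFR1 probe set 215404_x_at stood out. It read 18.0, 17.2 and 18.5 in untreated cells, 69.6, 48.9 and 36.1 after 6 h, and 78.1 and 33.2 after 12 h. All 5 treated arrays lay above the 3 untreated ones. Those were nearly equal in signal but stood at percentiles 44.0, 22.8 and 53.4 of their own arrays. The log2 difference was 1.48 ± 0.58 at 6 h (SE; 95% interval 0.22 to 2.73; adjusted p = 0.99996, limma over 22653 probe sets) and 1.51 ± 0.65 at 12 h (interval 0.10 to 2.92; adjusted p = 0.9999, limma). The 6 h difference was 1.46 without both arrays numbered 2. It was 1.44 with quantile normalization (interval -0.06 to 2.94) and 1.23 without 6 h replicate 1 (interval -0.29 to 2.76), and both intervals include 0. The other alternatives at 6 h had intervals above 0. At 12 h some intervals also include 0, such as -0.10 to 3.13 without untreated replicate 1. The 12 h difference was 0.89 when 12 h replicate 1 was left out and 2.13 when 12 h replicate 3 was. The other 6 FGFR1 probe sets had log2 differences of -0.05 to 0.42 at 6 h and -1.05 to 0.33 at 12 h. The suffix x_at marks probes that can also bind other transcripts. It was the 1 of 29 whose 6 h arrays lay above all untreated ones, where 2.02% of all probe sets did.

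At 12 h 5 of the 29 probe sets lay above all untreated arrays, where 8.12% of all probe sets did, and 1 of 29 below, where 6.11% did. The 5 were the bright probe sets of MET, FGFR1 and DDR2, 215404_x_at, and the DDR2 probe set 225442_at, which read 147, 161 and 175 untreated and 208 and 212 at 12 h. The 1 below was EGFR 211551_at, at 16.5, 72.7 and 22.1 untreated and 9.51 and 13.8 at 12 h, a log2 difference of -1.38 ± 1.04 (SE) that was -0.74 without untreated replicate 2. From 6 h to 12 h 3 of 29 lay above, where 5.86% of all did, and all 3 were DDR2 probe sets. The third of them, 205168_at, read 74.2, 56.6 and 88.1 after 6 h and 130.3 and 131 after 12 h, but 83.6, 131 and 95.1 untreated. Its log2 difference from 6 h to 12 h was 0.86 ± 0.39 (SE; interval 0.03 to 1.70; adjusted p = 0.99998, limma). The fourth DDR2 probe set, 235631_at, did not share this, with -0.05 from 6 h to 12 h. In the other direction 1 of 29 lay below all 6 h arrays, where 5.74% of all did: EGFR 201984_s_at, at 67.4, 81.9 and 63.9 after 6 h and 29.2 and 48.9 after 12 h.

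**Figure D4:**
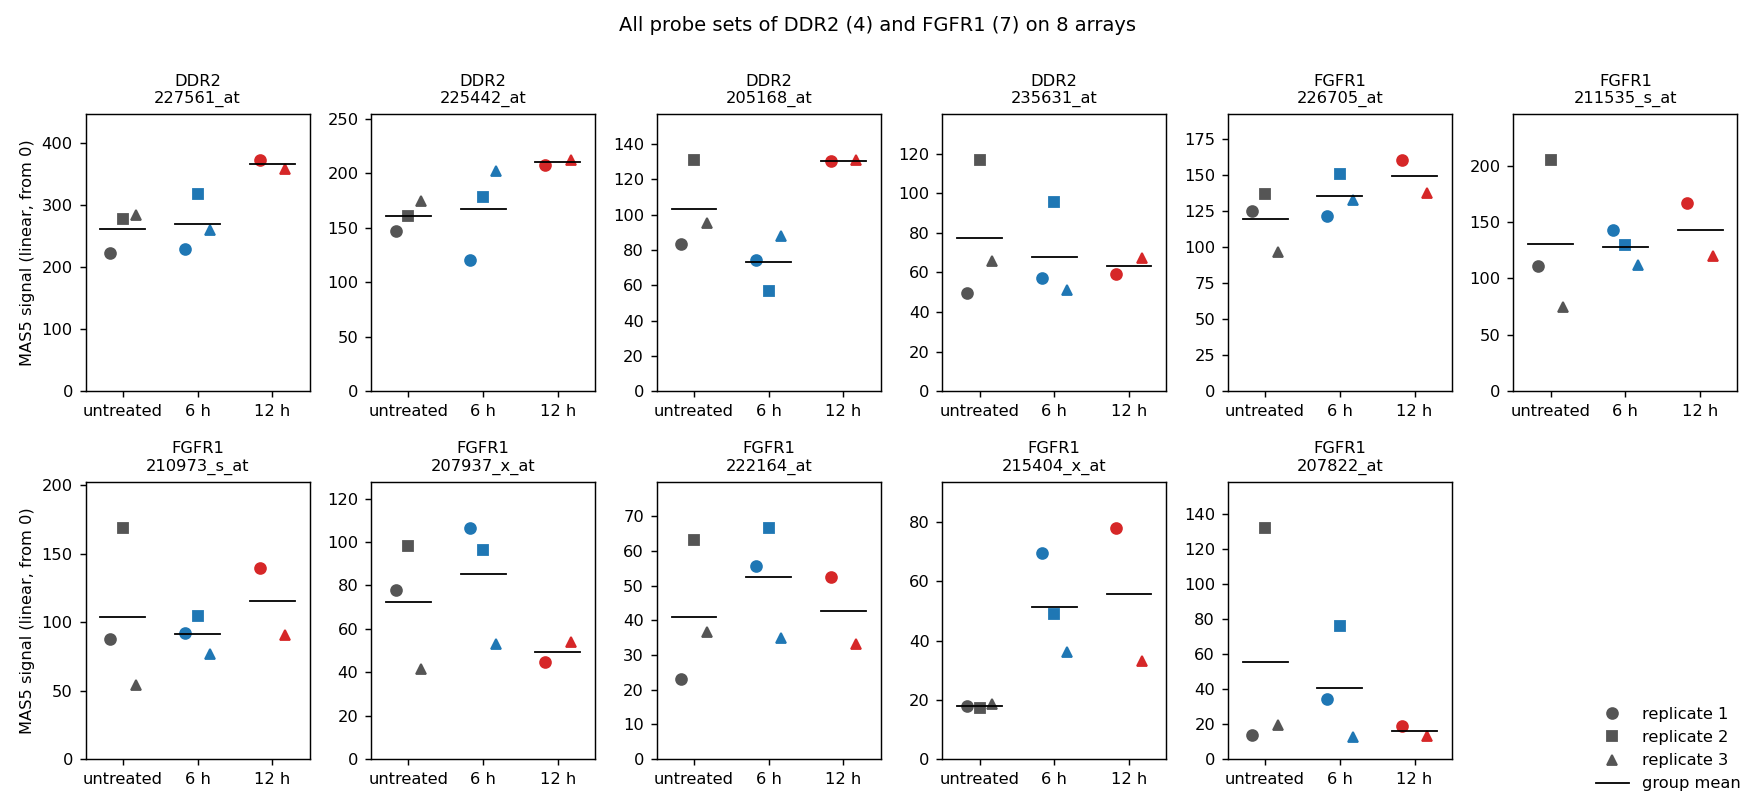
MAS5 signal (linear axis from 0, a different range in each panel) of all 4 DDR2 and all 7 FGFR1 probe sets, with 1 point per array and the bar as the group mean. Of the DDR2 probe sets 3 have both 12 h arrays above the 6 h arrays, and FGFR1 215404_x_at has untreated values of 17.2 to 18.5 under all treated ones.

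Deviations of same-numbered arrays from their group means were positively correlated, some only weakly, so differences within pairs were also read. At 6 h 0 of 9 tested receptors were above untreated in all 3 pairs, where 13.6% of all genes were, and 0 of 9 below in all 3, where 10.4% were. MET, for example, was at -0.95, 0.04 and 0.21 on the log2 scale in pairs 1, 2 and 3, and FGFR2 at 0.76, -0.54 and -0.45. At 12 h MET, FGFR1 and DDR2 (3 of 9) were above untreated in both pairs, where 34.0% of all genes were. DDR2 was at 0.75 and 0.34 in pairs 1 and 3, FGFR1 at 0.36 and 0.51, and MET at 0.16 and 0.22. ERBB2 and KIT (2 of 9) were below in both, where 25.0% of all genes were, KIT at -0.10 and -0.36.

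**Figure D5:**
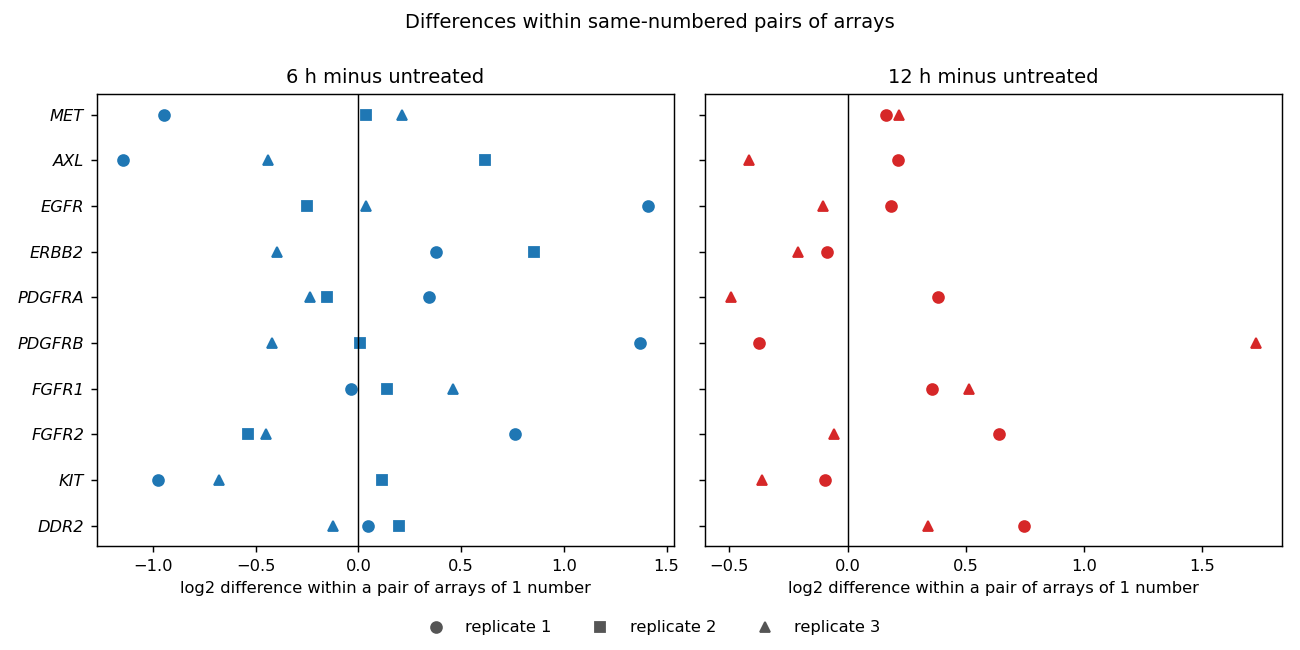
Log2 difference from untreated (horizontal axis) of the brightest probe set of each receptor gene within pairs of arrays of 1 replicate number, 3 pairs at 6 h and 2 at 12 h. At 6 h pair 1 is the lowest for MET, AXL, KIT and FGFR1 and the highest for EGFR, FGFR2, PDGFRA and PDGFRB. At 12 h both pairs of DDR2, FGFR1 and MET lie above 0.

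Genes around the receptors were read from 5 lists. Of 41 other receptor tyrosine kinases 19 were tested and 0 passed in either direction in any comparison (limma). Their median log2 difference was -0.02 at 6 h, 0.13 at 12 h and 0.02 from 6 h to 12 h, against 0.02, 0.08 and 0.06 over all genes. EPHA3, an ephrin receptor, had the smallest p of them from 6 h to 12 h, with 547, 415 and 471 untreated, 227, 284 and 485 after 6 h, and 524 and 511 after 12 h. The 12 h pair lay above all 6 h arrays, though inside the untreated range, with a log2 difference of 0.72 ± 0.33 (SE). PTK7, a catalytically inactive receptor, differed by 0.64 ± 0.36 from 6 h to 12 h, and ROR2, a WNT5A receptor, by 0.88 ± 0.56 at 6 h.

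Of 26 ligand genes 15 were tested and 0 passed in either direction in any comparison (limma), with medians of 0.02, 0.08 and 0.08. COL10A1, a collagen of hypertrophic cartilage, differed by -1.93 ± 1.08 (SE) at 12 h, COL1A2, a chain of the fibrillar collagen that DDR2 binds, by 0.98 ± 0.55 from 6 h to 12 h, and PDGFD by -0.80 ± 0.47. PDGFD, a ligand of PDGFRB, read 138, 95.6 and 64.4 after 6 h and 49.7 and 59.1 after 12 h. Of 27 adaptors and relay kinases 19 were tested, 0 passed, and medians were 0.06, 0.28 and 0.19. SOS1, the exchange factor that loads RAS with GTP, read 188, 148 and 282 untreated and 284.5 and 330.4 at 12 h, a log2 difference of 0.63 ± 0.33 (SE) with the 12 h pair above all untreated arrays. GAB1, the docking adaptor of MET, differed by -0.68 ± 0.37 from 6 h to 12 h and MAPK3, which encodes ERK1, by -0.92 ± 0.52 at 6 h.

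The genes that ERK signalling is known to induce, and those that end receptor signalling, also held 0 that passed in either direction (limma). Of 16 output genes 12 were tested, with medians of 0.13, 0.09 and -0.02 at 6 h, at 12 h and from 6 h to 12 h. PHLDA1 read 139.8, 103 and 99.1 untreated, 199.6, 251.5 and 122 after 6 h, and 136 and 121 after 12 h, and its 6 h difference was 0.70 ± 0.33 (SE). The immediate early gene EGR1 read 294, 221 and 335 untreated, 70.6, 213 and 384 after 6 h, and 211 and 471 after 12 h, so its lowest value was on 6 h replicate 1. IER3 differed by 0.54 ± 0.35 from 6 h to 12 h. Of 18 turnover and inhibitor genes 15 were tested, with medians of 0.04, 0.14 and 0.07. PTPN1, a phosphatase that acts on receptor tyrosine kinases, read 153, 275 and 161 untreated and 102 and 124 after 12 h, a log2 difference of -0.75 ± 0.36 (SE) with the 12 h pair below all untreated arrays. The decoy receptor FGFRL1 differed by 0.69 ± 0.48 and the cytokine signal inhibitor SOCS2 by -0.51 ± 0.38 from 6 h to 12 h.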

How the data were processed

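RNA of 8 Saos-2 samples was hybridised to Affymetrix arrays of 54675 probe sets. The deposited values are linear intensity (MAS5 signals, per the submitters' processing notes), scaled so that each array's 2% trimmed mean was 100.01, with settings of MAS5 not given in the sources used here. Control probe sets (62) were left out. Of the rest, 41091 had 1 gene symbol, 1801 several and 11721 none in the platform annotation.

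From the deposited intensity, values were raised to a floor of 2.386 (the 10th percentile of all signals) and put on the log2 scale. The brightest probe set of each gene was kept, and genes above the median log2 signal of 4.216 were tested (12063). A single limma 3.58.1 fit (R 4.3.3, eBayes with a variance trend) held all 3 groups, with Benjamini-Hochberg adjustment over all tested genes and a threshold of 0.05. It was checked on simulated data. A second fit covered 22653 single probe sets. The number of arrays limits the precision.

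Deviations from the group means correlated at 0.108 to 0.637 in 7 pairs of arrays with the same replicate number in the labels. In 14 other pairs they correlated at -0.576 to 0.333. The ranges overlap. Deviations from a group mean cancel within the group, so the values of these pairs are not independent of each other. With every same-number value over 0.1, differences were also read within pairs of 1 number. The single fit above did not use the number, and a fit with it as a block was an alternative. The median SE over all genes at 6 h was 0.352 without the block and 0.249 with it. Other alternatives were scaling, floor, filter, variance trend, summary over probe sets and leaving out arrays. The members and lists were chosen with earlier results of these data known. Named were all 10 members, up to 3 genes of each related list with the smallest p in any comparison, and the 3 genes most like the member with the highest mean log2 signal over the 8 arrays.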

Additional observations from a re-analysis of the deposited data

How the results depend on the processing

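No gene passed the threshold with limma in any of the 18 alternatives of each comparison, and the smallest adjusted p over all genes was 0.831 at 6 h, 0.794 at 12 h and 0.451 from 6 h to 12 h. Of 589 values of the receptors recomputed under alternatives, 45 changed sign and 0 passed. Array centring, which moves all genes of an array alike, gave 8 of these, and the other alternatives gave 37 of 555. These totals include values whose sign could not change. Changing the floor, the filter or the variance trend left the log2 differences as they were. So did fitting only the groups compared. The totals also include single probe sets whose groups did not overlap, and these kept their sign. The totals are therefore not a measure of how stable the signs of the receptor genes are. The cause of the sign changes was not tested. The fit with the replicate number as a block changed no call after adjustment, though its intervals for DDR2 at 12 h excluded 0. It gave 299 genes higher and 194 lower at an unadjusted p under 0.05 at 6 h, 155 and 107 at 12 h, and 148 and 149 from 6 h to 12 h, against 39 and 40, 33 and 41, and 44 and 44 without the block. With the block the AXL difference at 12 h was 0.13.

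All values that follow are log2 differences whose sign changed. Without both arrays numbered 2 they were at 6 h -0.0095 for ERBB2, 0.0553 for PDGFRA, 0.1585 for FGFR2 and -0.0386 for DDR2, and at 12 h 0.0391 for EGFR. With the mean over probe sets they were -0.1462 for DDR2 at 6 h. At 12 h that setting gave -0.2918 for MET, 0.0078 for AXL and -0.2158 for FGFR2, and from 6 h to 12 h -0.2697 for MET, -0.1947 for FGFR1 and -0.1455 for FGFR2. Array centring on the median gave at 12 h 0.4277 for AXL, 0.4702 for EGFR, 0.5598 for ERBB2, 0.3782 for PDGFRA and 0.237 for KIT. From 6 h to 12 h it gave 0.077 for EGFR, 0.2858 for ERBB2 and 0.3971 for PDGFRA, where the median of all genes itself moved to 0.65. Quantile normalization gave at 12 h 0.0823 for EGFR, 0.3611 for ERBB2 and 0.0167 for PDGFRA, and 0.0605 for PDGFRA from 6 h to 12 h.

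Leaving out 1 array at a time, the 6 h differences ranged from -0.6002 to 0.0032 for MET, from -0.2206 to 0.1337 for PDGFRA, from -0.3058 to 0.1561 for FGFR2 and from -0.0864 to 0.1482 for DDR2. At 12 h they ranged from -0.8059 to 0.499 for AXL, from -0.3677 to 0.108 for EGFR and from -0.1484 to 0.0485 for ERBB2. From 6 h to 12 h the range was -0.4835 to 0.8215 for AXL and -0.2851 to 0.5969 for KIT. Where this left 1 array at 12 h, that array was assumed to vary like the other groups. Signals near the floor, as for PDGFRB, limit what can be read.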
